A study of Mus musculus with 12 samples.

Results

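The insulin-like growth factor (IGF) axis was followed in 4 cell populations sorted from mouse aorta and the perivascular fat around it. Its members here are the ligand genes Igf1 and Igf2, the receptor genes Igf1r and Igf2r, and the binding protein genes Igfbp2, Igfbp3, Igfbp4, Igfbp5, Igfbp6 and Igfbp7, taken by symbol, which gave 10 of the 33352 genes in the count table. Of these, 9 had enough counts to be tested, and Igf2 did not. The populations are the sorted smooth muscle cells SMC2 and SMC1, the intermediate cells (Intermediate) and the progenitor cells (Progenitor), with 3 libraries each. All came from wild-type adult male mice of the outbred CD-1 strain at 13 weeks of age, with no transgene or treatment named. The antibodies and gates of the sort, and whether animals were pooled, are not given in the sources used here.

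IGF1 and IGF2 are small hormones related to insulin. They signal growth and survival through the tyrosine kinase receptor encoded by Igf1r, while the receptor encoded by Igf2r carries IGF2 and mannose-6-phosphate-tagged enzymes to lysosomes and does not signal in that way. IGF binding proteins hold most of the ligand outside cells, prolong its life and limit its access to the receptor, until proteases such as PAPP-A cut them. The liver releases much of the circulating IGF1 in response to growth hormone, but connective tissue cells and vessel walls also make it, and smooth muscle cells respond to it.

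Depth ran from 13258631 to 22647175 counts per library. Levels below are CPM, in which a gene's count is set relative to the scaled size of its library, with mean ± SD over n = 3 libraries unless each library is given. Changes are log2 differences ± standard error from edgeR's quasi-likelihood test, with adjusted p below 0.05 over all 19016 genes tested as the threshold for a call. The sum of 7 smooth muscle markers ran from 18630 to 26620 CPM in SMC2 libraries and from 28870 to 34960 in SMC1, against 483.1 to 616 in Intermediate and 252 to 542.5 in Progenitor. The sum of 7 fibroblast markers was lower in both SMC populations than in Intermediate and Progenitor. It ran from 394.8 to 805 CPM in SMC2 and 1009 to 1777 in SMC1, against 40400 to 48320 in Intermediate and 47960 to 58890 in Progenitor. Both sums were higher in SMC1 than in SMC2, but not each marker was. Most of the difference in the fibroblast sum came from Col1a1, at 797 CPM in SMC1 and 92.1 in SMC2. Only Dcn of that list went the other way, at 356 CPM in SMC1 and 424 in SMC2. Of the smooth muscle list only Des did, at 70.9 CPM in SMC1 and 267 in SMC2. Markers of other cell types also differed between populations: the summed adipocyte list reached 542.7 to 653 CPM in SMC2 and at most 48.63 elsewhere, the endothelial list 285.5 to 372.8 CPM in SMC1 and at most 128 elsewhere, and the mesothelial list 170.6 to 408.9 CPM in Intermediate and at most 69.17 elsewhere. The leukocyte list ran from 119.8 to 562.1 CPM in SMC1 and from 88.67 to 230.6 CPM over the other populations. No marker was at 0 in all libraries of a population. In such bulk libraries fewer cells of a type and less RNA per cell cannot be told apart.

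The sequences upstream of 4 binding protein genes are shown because these genes carry the main contrasts described below: per kilobase of exon Igfbp7 alone makes up most of the binding protein transcripts in both SMC populations, and Igfbp6 with Igfbp7 in the other populations, and Igfbp2 and Igfbp5 are convergent neighbours on chromosome 1, 5.457 kb apart, with opposite orders in SMC1. Each is the 250 bases before the RefSeq start on GRCm38.p6, written 5′ to 3′ on the gene's strand, at chr15:102143936-102144185 (+) for Igfbp6, chr5:77408046-77408295 (-) for Igfbp7, chr1:72824230-72824479 (+) for the first of the Igfbp2 starts and chr1:72874866-72875115 (-) for Igfbp5. Capitals mark E-boxes (CANNTG) and the TATA motif (TATAAA, here found on the reverse strand), searched on both strands.
Igfbp6: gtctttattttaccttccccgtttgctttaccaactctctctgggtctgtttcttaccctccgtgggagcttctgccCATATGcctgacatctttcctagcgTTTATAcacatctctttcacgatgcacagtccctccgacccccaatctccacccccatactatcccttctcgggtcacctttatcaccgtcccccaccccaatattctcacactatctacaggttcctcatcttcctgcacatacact
Igfbp7: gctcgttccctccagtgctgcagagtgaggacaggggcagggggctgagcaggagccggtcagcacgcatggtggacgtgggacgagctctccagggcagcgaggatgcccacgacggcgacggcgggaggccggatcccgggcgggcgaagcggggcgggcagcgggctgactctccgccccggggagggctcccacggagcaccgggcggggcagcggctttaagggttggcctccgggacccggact
Igfbp2: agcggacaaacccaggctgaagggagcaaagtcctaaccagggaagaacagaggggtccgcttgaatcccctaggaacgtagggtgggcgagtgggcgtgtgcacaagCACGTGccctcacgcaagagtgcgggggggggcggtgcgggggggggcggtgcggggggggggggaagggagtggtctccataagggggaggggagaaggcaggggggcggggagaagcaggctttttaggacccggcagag
Igfbp5: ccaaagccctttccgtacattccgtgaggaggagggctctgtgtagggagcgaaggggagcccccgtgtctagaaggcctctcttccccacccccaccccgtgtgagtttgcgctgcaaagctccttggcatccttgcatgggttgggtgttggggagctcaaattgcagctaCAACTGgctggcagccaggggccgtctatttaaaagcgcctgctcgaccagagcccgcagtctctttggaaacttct
The last 19 bases shown for Igfbp5 lie in an annotated exon. The window of Igf1 is not shown because all 250 bases lie in annotated Igf1 exons. The Igfbp7 window has a GC content of 74% with 26 CpG dinucleotides and no match to either motif. The Igfbp2 window has 67.2% GC, 14 CpG and 1 E-box, the Igfbp5 window 58.8% GC, 10 CpG and 1 E-box, and the Igfbp6 window 49.6% GC, 7 CpG, 1 E-box and 1 TATA motif. Over 32841 RefSeq windows of the same length, the median GC content was 52.4% and the median number of CpG was 6, while 66.2% held an E-box and 12.4% a TATA motif. The CArG box, which serum response factor binds, was in 1.47% of all windows and in none of these 4. A match is a description of the letters and no evidence of binding.

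Igf1 (chromosome 10, 87858265 to 87937042 on GRCm38) was a gene of the populations with fibroblast markers. It had 15.1, 35.7 and 37.9 CPM in the SMC2 libraries and 34.0, 28.3 and 29.8 CPM in SMC1, against 851, 695 and 726 CPM in Intermediate and 849, 658 and 671 CPM in Progenitor. Each library of Intermediate and Progenitor stood far above each smooth muscle library, while the libraries overlapped within each of these pairs of populations. In edgeR's quasi-likelihood test Igf1 was lower in SMC1 than in Progenitor by a log2 change of -4.56 ± 0.28, 23.7-fold (adjusted p = 7.12e-11), and in SMC2 than in Progenitor by -4.62 ± 0.28, 24.6-fold (adjusted p = 5.94e-11). Against Intermediate the log2 changes were -4.62 ± 0.28 in SMC1 (adjusted p = 8.14e-11) and -4.68 ± 0.29 in SMC2 (adjusted p = 4.96e-11). Neither Intermediate minus Progenitor (0.06 ± 0.24, adjusted p = 0.889) nor SMC2 minus SMC1 (-0.06 ± 0.25, adjusted p = 0.886) was called, and the sign of both small differences turned under other settings. The lowest library, SMC2 replicate 1, also had the lowest Igfbp6. Fibroblast markers were present in the SMC libraries at the levels given above, and their part in the Igf1 counts there was not tested.

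Igf2 (chromosome 7, 142650766 to 142666816), the fetal growth factor and an imprinted gene, had counts close to the detection limit in these libraries of adult cells. Its raw counts were 13, 12 and 4 in SMC2 and 2, 0 and 1 in SMC1, against 0, 0 and 5 in Intermediate and 2, 0 and 1 in Progenitor. SMC2 held most of the reads, but its lowest library, at 0.24 CPM, lay under the highest Intermediate library, at 0.319 CPM. Summed over the 3 libraries and set against their raw totals, Igf2 had 0.556 CPM in SMC2 (95% exact Poisson interval 0.373 to 0.799) and 0.0511 in SMC1 (0.0105 to 0.149), against 0.095 in Intermediate (0.0309 to 0.222) and 0.0551 in Progenitor (0.0114 to 0.161). These intervals cover counting error only, since amplified reads are not independent molecules. When no filter on low counts was applied, edgeR's test of any difference among the populations gave adjusted p = 0.0341, but SMC2 minus SMC1 (log2 2.98, adjusted p = 0.0532), SMC2 minus Progenitor (2.91, adjusted p = 0.0556) and SMC2 minus Intermediate (2.10, adjusted p = 0.16) were not called. Igf2 passed the filter only in fits that kept both SMC2 replicates 1 and 2, where it is high, so the calls of fits that left out another library are not given. Of its exon bases, 64.5% overlap the annotated genes Gm49394, on the same strand, and Igf2os, on the other strand. The library kit does not mark strand, and strand would not set Gm49394 apart, so these reads cannot be assigned to Igf2 with certainty. Whether reads in shared exons were left uncounted is not known, as the counting program is not given. Tagln, with 67.9% of its exon bases in other genes, had 38.9 CPM in SMC2 and 49.5 in SMC1, against 14500 and 19500 for Acta2. Such a loss was not tested for Igf2.

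H19, the noncoding RNA of the same imprinted locus, was named after its values were seen. It was also low, with 1.425 ± 0.1585 CPM in SMC2 and 0.017 ± 0.0294 in SMC1, against 0.105 ± 0.0373 in Intermediate and 2.33 ± 2.03 in Progenitor, where the SD nearly equalled the mean. At these levels H19 could pass the filter on low counts only through SMC2 and Progenitor, where it is high. Its calls against SMC1 and Intermediate are therefore not given. In edgeR's test it was not called between SMC2 and Progenitor (log2 -0.69, adjusted p = 0.311).

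**Figure D1:**
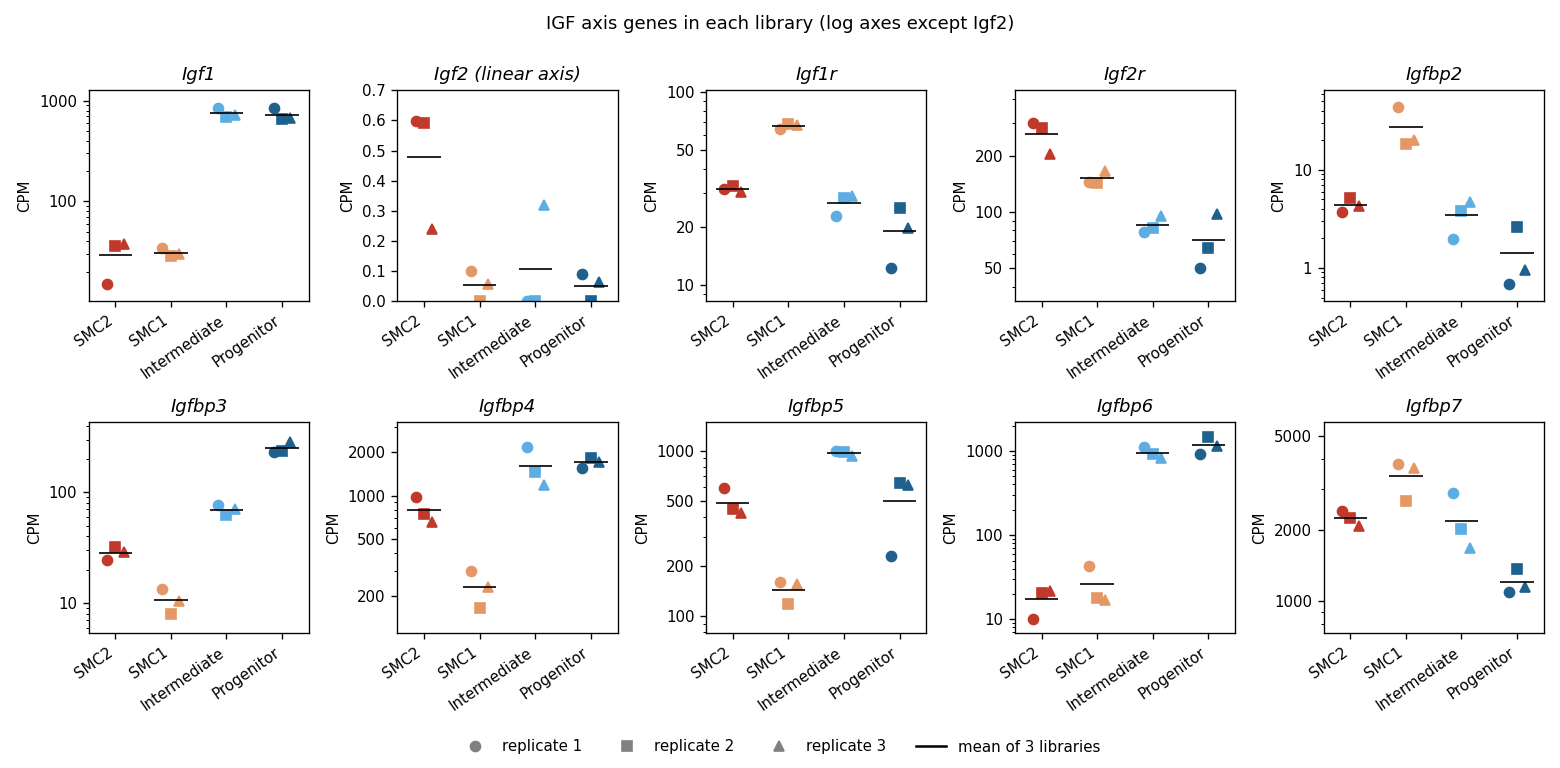
CPM of the 10 IGF axis genes in each of the 12 libraries, on log axes except for Igf2, with populations from left to right as SMC2, SMC1, Intermediate and Progenitor; symbols are replicates and bars the mean of 3 libraries. Igf1 and Igfbp6 stand well above the smooth muscle libraries in Intermediate and Progenitor, while Igf1r, Igfbp2 and Igfbp7 have their highest means in SMC1 and Igf2r in SMC2.

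Unlike Igf1, both receptor genes had their highest mean in a smooth muscle population, Igf1r in SMC1 and Igf2r in SMC2. Igf1r (chromosome 7, 67952827 to 68233668) had 31.7, 32.7 and 30.5 CPM in SMC2 and 64.8, 68.5 and 67.7 CPM in SMC1, against 22.7, 28.2 and 29.1 CPM in Intermediate and 12.3, 25.1 and 19.8 CPM in Progenitor. The SMC1 libraries stood apart above all others, and the 3 Progenitor libraries were the most spread. Igf1r was lower in SMC2 than in SMC1 by -1.08 ± 0.19 (adjusted p = 0.000167), and higher in SMC1 than in Intermediate by 1.33 ± 0.20 (adjusted p = 1.29e-05) and than in Progenitor by 1.82 ± 0.20, 3.53-fold (adjusted p = 1.95e-07). It was also higher in SMC2 than in Progenitor (0.74 ± 0.20, adjusted p = 0.00438). The neighbours SMC2 and Intermediate (0.25 ± 0.20, adjusted p = 0.326) and Intermediate and Progenitor (0.49 ± 0.20, adjusted p = 0.0849) were not called, and without Progenitor replicate 2 the second had adjusted p = 0.0137.

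Igf2r (chromosome 17, 12682406 to 12769664) had 298, 282 and 203 CPM in SMC2 and 145, 142 and 166 CPM in SMC1, against 78.5, 81.7 and 94.8 CPM in Intermediate and 49.9, 64.2 and 98.03 CPM in Progenitor. The populations SMC2, SMC1 and Intermediate did not overlap, and the Progenitor libraries spread across the Intermediate range. Igf2r was higher in SMC2 than in SMC1 by 0.79 ± 0.21 (adjusted p = 0.00577), than in Intermediate by 1.62 ± 0.21 (adjusted p = 2.31e-06) and than in Progenitor by 1.88 ± 0.22, 3.69-fold (adjusted p = 3.29e-07). SMC1 was higher than Intermediate by 0.83 ± 0.21 (adjusted p = 0.00322) and than Progenitor by 1.10 ± 0.21 (adjusted p = 0.000228). Intermediate minus Progenitor was not called (0.27 ± 0.21, adjusted p = 0.393), but had adjusted p = 0.0459 without Progenitor replicate 3.

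Per kilobase of exon, the scale on which genes can be set side by side, Igf2r stood above Igf1r in all 12 libraries. The ratio of Igf2r to Igf1r averaged 14.8 ± 2.55 in SMC2 and 4.07 ± 0.347 in SMC1, against 5.78 ± 0.516 in Intermediate and 6.95 ± 2.18 in Progenitor. The SMC2 libraries, from 12.01 to 17.0, lay above the range of 3.74 to 8.92 covered by the other populations. The ratio depends on the lengths used, here all exon bases, with 16.791 kb for Igf1r and 9.308 kb for Igf2r. Their longest transcripts have 11.409 kb and 8.887 kb, which would give lower ratios. This ratio was not tested, and it is a ratio of transcripts, not of receptors at the cell surface.

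**Figure D2:**
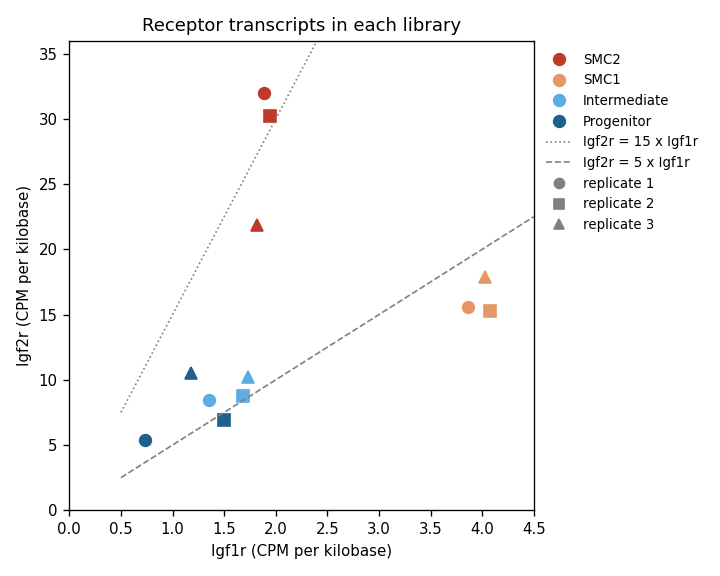
Igf2r against Igf1r in each library, both in CPM per kilobase of exon; colours are populations, symbols are replicates, and grey lines mark ratios of 15 and 5. The SMC2 libraries lie near the upper line and the SMC1 libraries lie to the right, with ratios of 3.74 to 4.43.

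The 6 binding protein genes divided by population more than by family. Igfbp6 fell most in smooth muscle, Igfbp3 and Igfbp4 fell in both SMC populations with their lowest levels in SMC1, Igfbp5 was highest in Intermediate, and Igfbp2 and Igfbp7 were highest in SMC1. Igfbp6 (chromosome 15, 102144362 to 102149511), a binding protein with a preference for IGF2, had 10.2, 20.7 and 21.4 CPM in SMC2 and 43.0, 18.1 and 16.9 CPM in SMC1, against 1114, 924 and 818 CPM in Intermediate and 925, 1470.2 and 1136 CPM in Progenitor. As with Igf1, the smooth muscle libraries lay far below the others with no overlap. Igfbp6 was lower in SMC2 than in Progenitor by -6.08 ± 0.41, 67.5-fold (adjusted p = 1.97e-09), and in SMC1 than in Progenitor by -5.50 ± 0.40, 45.3-fold (adjusted p = 5.09e-09). The second was -6.14 without SMC1 replicate 1, the library with 43.0 CPM. Against Intermediate the log2 changes were -5.77 ± 0.40 in SMC2 (adjusted p = 3.1e-09) and -5.19 ± 0.39 in SMC1 (adjusted p = 1.1e-08). Intermediate minus Progenitor (-0.31 ± 0.32, adjusted p = 0.546) and SMC2 minus SMC1 (-0.58 ± 0.34, adjusted p = 0.203) were not called, although the second had adjusted p = 0.0143 when no filter on low counts was used.

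Igfbp3 (chromosome 11, 7206086 to 7213923), the main carrier of IGFs in serum, was the member that separated all 4 populations. It had 24.5, 32.3 and 28.8 CPM in SMC2 and 13.3, 7.97 and 10.4 CPM in SMC1, against 76.7, 62.4 and 70.4 CPM in Intermediate and 229.6, 237 and 287 CPM in Progenitor. No population overlapped another, in the order Progenitor, Intermediate, SMC2 and SMC1 from high to low. Igfbp3 fell in Intermediate relative to Progenitor by -1.85 ± 0.18, 3.60-fold (adjusted p = 5.73e-07), and in SMC1 relative to Progenitor by -4.58 ± 0.21, 23.8-fold (adjusted p = 8.95e-13). SMC2 was above SMC1 by 1.44 ± 0.19 (adjusted p = 4.79e-06), and below Intermediate by -1.29 ± 0.18 (adjusted p = 6.11e-06) and Progenitor by -3.14 ± 0.19 (adjusted p = 3.51e-11). SMC1 minus Intermediate was -2.73 ± 0.20 (adjusted p = 4.15e-10). These 6 calls were kept in each fit that left out a library.

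Igfbp4 (chromosome 11, 99041244 to 99054392), whose product inhibits IGF action and is the main target of PAPP-A, had 984, 742 and 658 CPM in SMC2 and 297, 165 and 231 CPM in SMC1, against 2171, 1459 and 1187 CPM in Intermediate and 1549, 1843 and 1726 CPM in Progenitor. The SMC1 libraries were the lowest and the SMC2 libraries lay between them and the other 2 populations, which overlapped. Igfbp4 was higher in SMC2 than in SMC1 by 1.78 ± 0.25, 3.44-fold (adjusted p = 9.08e-06). It was lower in SMC2 than in Intermediate by -1.01 ± 0.24 (adjusted p = 0.00177) and than in Progenitor by -1.10 ± 0.24 (adjusted p = 0.000849), and in SMC1 than in Intermediate by -2.80 ± 0.26 (adjusted p = 1.77e-08) and than in Progenitor by -2.89 ± 0.26, 7.39-fold (adjusted p = 9.81e-09). Intermediate minus Progenitor was not called (-0.09 ± 0.24, adjusted p = 0.836).

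Igfbp5 (chromosome 1, 72857932 to 72874884), which binds matrix as well as IGFs, had its highest level in Intermediate. It had 595, 445 and 418 CPM in SMC2 and 160.0, 118 and 155 CPM in SMC1, against 995, 982 and 934 CPM in Intermediate and 231, 639.7 and 624 CPM in Progenitor. The Intermediate libraries lay above all others and the SMC1 libraries below, and the SMC2 libraries fell within the Progenitor range, whose low end is Progenitor replicate 1. Igfbp5 was higher in Intermediate than in Progenitor by 0.96 ± 0.28, 1.95-fold (adjusted p = 0.0188), with adjusted p = 0.0511 without Intermediate replicate 1. SMC2 was higher than SMC1 by 1.75 ± 0.29 (adjusted p = 8.39e-05) and lower than Intermediate by -0.997 ± 0.28 (adjusted p = 0.00683). SMC1 was lower than Intermediate by -2.75 ± 0.30, 6.72-fold (adjusted p = 3.84e-07), and than Progenitor by -1.79 ± 0.29 (adjusted p = 4.21e-05). SMC2 minus Progenitor was not called (-0.03 ± 0.28, adjusted p = 0.935). Mesothelial markers also had their highest sum in Intermediate, as given above. Each of them but Wt1 was highest there, with Krt18 at 11.6 CPM in Intermediate and 10.1 in SMC1. Wt1 was at 17.9 CPM in Progenitor against 5.7 in Intermediate. The part of mesothelial cells in the Igfbp5 level was not tested.

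Igfbp2 (chromosome 1, 72824503 to 72852474), the neighbour of Igfbp5 with a different pattern, had low levels outside SMC1. It had 3.68, 5.14 and 4.32 CPM in SMC2 and 43.3, 18.4 and 20.1 CPM in SMC1, against 1.99, 3.77 and 4.66 CPM in Intermediate and 0.684, 2.60 and 0.947 CPM in Progenitor. The SMC1 libraries stood above all others, and SMC1 replicate 1 was more than 2 times as high as either other SMC1 library. Igfbp2 was lower in SMC2 than in SMC1 by -2.64 ± 0.40, 6.22-fold (adjusted p = 7.89e-05). It was higher in SMC1 than in Intermediate by 2.97 ± 0.42 (adjusted p = 2.32e-05) and than in Progenitor by 4.32 ± 0.46, 20.0-fold (adjusted p = 8.39e-07), with 5.09 without Progenitor replicate 2. SMC2 was higher than Progenitor by 1.68 ± 0.47 (adjusted p = 0.00718), with 2.43 without Progenitor replicate 2 and adjusted p = 0.0535 without Progenitor replicate 1. Intermediate minus Progenitor was just short of a call (1.35 ± 0.48, adjusted p = 0.0541), with adjusted p = 0.00518 without Progenitor replicate 2 and 0.017 in the DESeq2 test, and SMC2 minus Intermediate was not called (0.33 ± 0.42, adjusted p = 0.555).

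Igfbp7 (chromosome 5, 77349240 to 77408041), a relative of the classical binding proteins with low affinity for IGFs and a matrix protein of vessels, was per kilobase of exon the most abundant binding protein gene in SMC2, SMC1 and Intermediate. It had 2416, 2263 and 2085 CPM in SMC2 and 3837, 2672 and 3662 CPM in SMC1, against 2887, 2028 and 1677 CPM in Intermediate and 1098, 1377 and 1156 CPM in Progenitor. The Progenitor libraries were below all others, the SMC1 libraries overlapped Intermediate through Intermediate replicate 1, and SMC2 lay within the Intermediate range. Igfbp7 was higher than in Progenitor in SMC1 by 1.49 ± 0.22, 2.80-fold (adjusted p = 1.11e-05), in SMC2 by 0.90 ± 0.22 (adjusted p = 0.00191) and in Intermediate by 0.86 ± 0.22 (adjusted p = 0.00708). The differences of SMC2 minus SMC1 (-0.59 ± 0.22, adjusted p = 0.0407) and of SMC1 minus Intermediate (0.63 ± 0.22, adjusted p = 0.0255) were called but less firm. The first had adjusted p of 0.145 and 0.107 without SMC1 replicate 1 or 3, 0.0932 and 0.127 without SMC2 replicate 2 or 3, and 0.073 with upper-quartile scaling. The second had adjusted p of 0.0982 and 0.0706 without SMC1 replicate 1 or 3, and 0.101 and 0.157 without Intermediate replicate 2 or 3. SMC2 minus Intermediate was not called (0.04 ± 0.22, adjusted p = 0.907). Markers of endothelial cells and pericytes, which are known to make Igfbp7, also had their highest sums in SMC1. The endothelial sum is given above, with 5 of 6 markers highest in SMC1 and Kdr at 13.4 CPM in both SMC1 and Intermediate. The sum of 5 pericyte markers ran from 1109 to 1426 CPM in SMC2 and from 2329 to 2960 in SMC1, against 540.2 to 563.8 in Intermediate and 166.7 to 260.7 in Progenitor. Of these, Rgs5, Abcc9 and Cspg4 were highest in SMC1, but Notch3 was at 432 CPM in SMC2 against 51.6 in SMC1, and Kcnj8 at 90.8 CPM in SMC1 against 179 in Intermediate. The part of these cells in the Igfbp7 level was not tested. Of the exon bases of Igfbp7, 7.03% overlap Polr2b on the other strand.

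Taken per kilobase, so that genes of different length can be added, the binding protein transcripts were dominated by Igfbp7 in smooth muscle and shared between Igfbp7 and Igfbp6 in the other populations. Igfbp7 made up 86.7 ± 1.09% of the summed Igfbp2 to Igfbp7 level in SMC2 and 96.0 ± 0.726% in SMC1, against 56.0 ± 2.40% in Intermediate and 38.6 ± 2.30% in Progenitor. Igfbp6 made up 0.746 ± 0.311% in SMC2 and 0.784 ± 0.344% in SMC1, against 26.9 ± 2.06% in Intermediate and 40.3 ± 2.73% in Progenitor. In Progenitor these shares were nearly equal, with Igfbp7 ahead in replicate 1 and Igfbp6 ahead in replicates 2 and 3.

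Igfbp4 made up 8.30 ± 1.07% in SMC2 and 1.77 ± 0.218% in SMC1, against 11.2 ± 0.833% in Intermediate and 14.9 ± 1.18% in Progenitor. Igfbp5 was between 0.826% in SMC1 and 5.17% in Intermediate. Igfbp3 reached 3.13 ± 0.584% in Progenitor and was below 1% elsewhere, and Igfbp2 was below 1% in all populations. The shares depend on the lengths used: without correction for length, Igfbp7 was at 63.1% in SMC2, 88.6% in SMC1, 37.6% in Intermediate and 25.1% in Progenitor, and Igfbp4 at 35.5% in Progenitor was the largest share there.

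**Figure D3:**
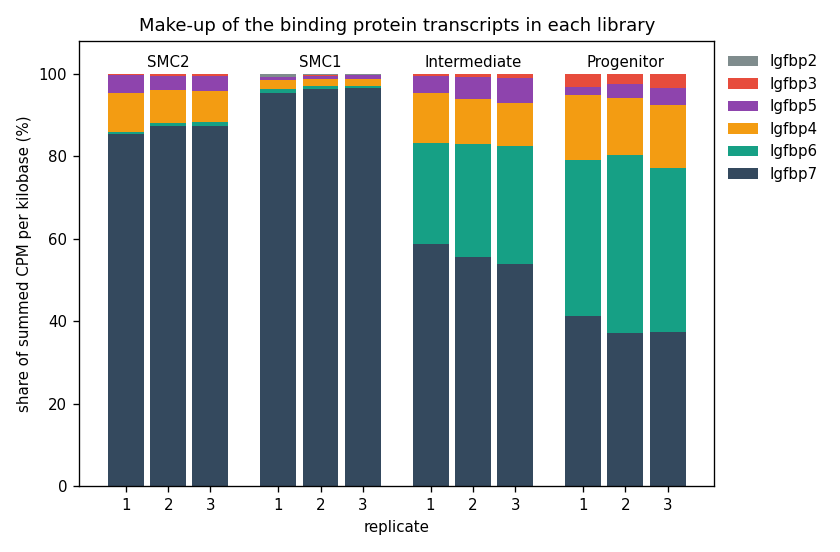
Share of each binding protein gene in the summed CPM per kilobase of Igfbp2 to Igfbp7, in percent, as stacked bars from 0 for each library. Igfbp7 fills 85.4 to 96.6% of the bar in smooth muscle libraries, and Igfbp6 fills 24.6 to 28.6% in Intermediate and 37.8 to 43.2% in Progenitor.

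Counted over the 9 tested members, the comparisons differed in how much of the axis moved, and the share of all genes called is given with each. All 9 differed among the 4 populations in edgeR's test of any difference, with adjusted p from 1.9e-13 for Igfbp3 to 7.6e-05 for Igfbp7, where 66.2% of all genes did. In SMC2 minus SMC1, 4 members were higher (16.5% of all genes) and 3 lower (18.1%), with Igf2r, Igfbp3, Igfbp4 and Igfbp5 higher and Igf1r, Igfbp2 and Igfbp7 lower. In SMC1 minus Progenitor, 4 were higher (25.3% of all genes) and 5 lower (23.1%), so that each member tested was called. The same numbers, 4 higher (19.7%) and 5 lower (21.9%), were found in SMC1 minus Intermediate. In SMC2 minus Progenitor, 4 were higher (23.1%) and 4 lower (21.7%), and in SMC2 minus Intermediate 1 was higher (21.4%) and 5 were lower (23.2%).

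In Intermediate minus Progenitor, 2 members were higher (12.7% of all genes), Igfbp5 and Igfbp7, and 1 was lower (9.46%), Igfbp3, while 6 were not called, Igf1 and both receptor genes among them. Without Progenitor replicate 2 the number of members called was 5 of 9, while over all genes fewer were called than with all libraries. Of all calls in Intermediate minus Progenitor, 57.3% were higher, and with upper-quartile scaling, which shifts the median of all genes by -0.16, 39.2% were; in SMC1 minus Progenitor the shares were 52.3% and 41.3%, with a shift of -0.18. The median log2 change of the tested members was 0.27 in Intermediate minus Progenitor, -0.06 in SMC2 minus SMC1, -1.79 in SMC1 minus Progenitor, -0.03 in SMC2 minus Progenitor, -2.73 in SMC1 minus Intermediate and -0.997 in SMC2 minus Intermediate. The median of all genes lay between -0.00 and 0.08 in these comparisons. Several comparisons share a population, so their counts are not independent.

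**Figure D4:**
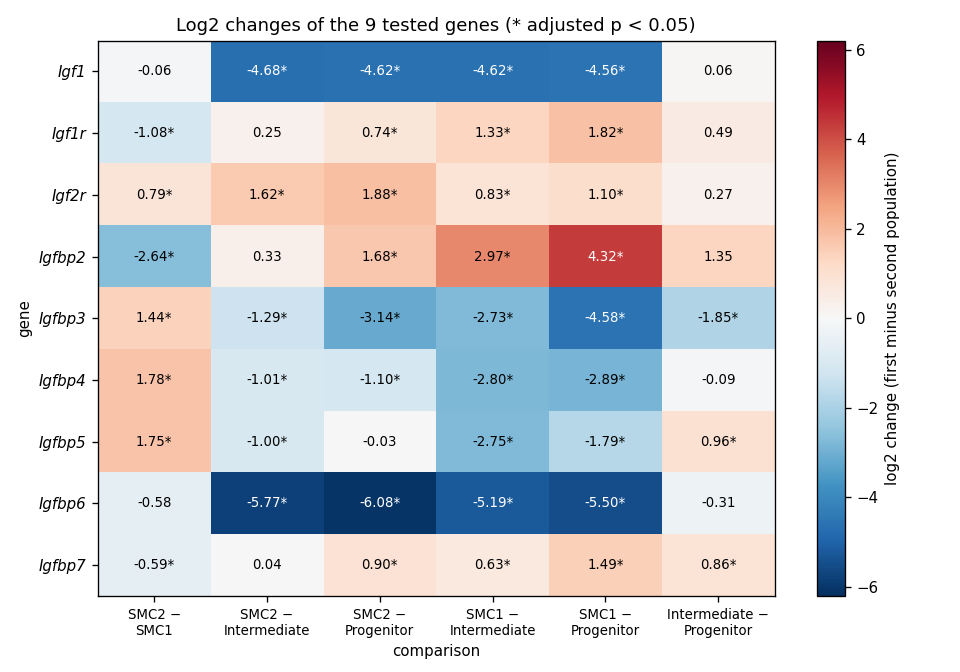
Log2 changes of the 9 tested members (rows) in the 6 comparisons (columns), first minus second population, from edgeR; an asterisk marks an adjusted p below 0.05. Igf1 and Igfbp6 are lower than -4.5 in each comparison of an SMC population with Intermediate or Progenitor and carry no asterisk in the other 2 columns.

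The patterns of single members over the 12 libraries can be described by the genes nearest to them, by Pearson correlation of log2 CPM among 8978 genes of at least moderate level. The libraries fall into 4 populations and share their depth, so these correlations mainly restate the population means and are given without a test. For Igf1 the nearest were the prostaglandin receptor gene Ptgfr (0.998), the transporter gene Slc43a3 (0.997) and Mlkl (0.997), and for Igfbp6 Rab7b, Nuak2 and again Slc43a3 (each 0.996). Igf1 and Igfbp6 themselves had a correlation of 0.99. The nearest gene to Igfbp2 was Igf1r (0.968), followed by Mtus2 (0.96) and the actinin gene Actn1 (0.959), while those given for Igf1r are the phosphatase gene Dusp3 (0.987) and Actn1 (0.982).

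For Igf2r the nearest were the sialidase gene Neu3 (0.979), the adenylyl cyclase gene Adcy9 (0.977) and the protease gene Adamts1 (0.977). For Igfbp3 they were Ifi207 (0.995), Adam23 (0.994) and the chemokine gene Ccl2 (0.993), the last with 11.3 CPM in SMC2, 2.81 in SMC1, 27.9 in Intermediate and 136 in Progenitor. Igfbp4 was followed by Gypc (0.992), Rbms1 (0.99) and Renbp (0.986), Igfbp5 by Adgra2 (0.961), Sema4c (0.96) and the Wnt receptor gene Fzd4 (0.959), and Igfbp7 by G6pc3 (0.976), Tmed4 (0.972) and Trim47 (0.966).

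Among 14 other genes for extracellular regulators of IGF, 12 were tested. Beside the shares of all genes called higher and lower, given in brackets, 5 were higher and 5 lower in SMC2 minus SMC1 (16.5% and 18.1%), 4 and 7 in SMC1 minus Progenitor (25.3% and 23.1%), 2 and 6 in SMC2 minus Progenitor (23.1% and 21.7%), 3 and 5 in SMC1 minus Intermediate (19.7% and 21.9%), 2 and 6 in SMC2 minus Intermediate (21.4% and 23.2%) and 3 and 3 in Intermediate minus Progenitor (12.7% and 9.46%). The list medians ran from -1.95 to 0.12, where the medians of all genes ran from -0.00 to 0.08. Pappa, the protease gene for IGFBP4, had 9.59 ± 0.832 CPM in SMC2 and 2.499 ± 0.159 in SMC1, against 16.05 ± 3.175 in Intermediate and 33.3 ± 5.14 in Progenitor. It was lower in Intermediate than in Progenitor (log2 -1.05, adjusted p = 0.000247) and in SMC1 than in Progenitor (-3.73, adjusted p = 9.3e-12). Stc2, whose product inhibits PAPP-A, was higher in Intermediate than in Progenitor (1.82, adjusted p = 6.26e-06), at 44.0 ± 7.10 CPM in Intermediate against 12.5 ± 3.61 in Progenitor. Between these populations Pappa was thus lower and Stc2 higher in Intermediate. The related gene Stc1 of this list, named after its values were seen, was not called (0.17, adjusted p = 0.749). It had 11.75 ± 2.57 CPM in Intermediate and 10.5 ± 5.26 in Progenitor. Igfbp4 transcripts were not called either, and cutting of the protein was not measured.

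Pappa2, named after its values were seen, encodes a related protease that cuts IGFBP3 and IGFBP5. It had the opposite order to Pappa in smooth muscle, with 4.19 ± 0.962 CPM in SMC2 and 21.5 ± 4.54 in SMC1 (SMC2 minus SMC1 -2.36, adjusted p = 2.68e-07). Mmp2, a matrix protease gene that also acts on binding proteins, followed the fibroblast markers, with 49.4 ± 19.9 CPM in SMC2 and 135 ± 39.5 in SMC1, against 2242 ± 738 in Intermediate and 2133 ± 249 in Progenitor. Vtn, which encodes the IGF2- and IGFBP5-binding matrix protein vitronectin, was at 40.8 ± 9.09 CPM in SMC2 and 3.18 ± 1.53 in SMC1, against 1.258 ± 0.0457 in Intermediate and 43.4 ± 10.7 in Progenitor. It was lower in Intermediate than in Progenitor by -5.10 (adjusted p = 6.37e-09).

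Of 12 receptor and adaptor genes, 11 were tested. Set beside the shares of all genes in brackets, the counts were 1 higher and 2 lower in SMC2 minus SMC1 (16.5% and 18.1%), 5 and 2 in SMC1 minus Progenitor (25.3% and 23.1%), 4 and 3 in SMC2 minus Progenitor (23.1% and 21.7%), 4 and 2 in SMC1 minus Intermediate (19.7% and 21.9%), 3 and 3 in SMC2 minus Intermediate (21.4% and 23.2%) and 3 and 1 in Intermediate minus Progenitor (12.7% and 9.46%). The list medians ran from -0.43 to 0.36, beside -0.00 to 0.08 for all genes. The insulin receptor gene Insr was higher in both SMC populations than in Progenitor, by 1.10 in SMC2 (adjusted p = 8.88e-06) and 1.24 in SMC1 (adjusted p = 2.02e-06), and was not called in SMC2 minus SMC1 (-0.14, adjusted p = 0.524). Irs2 encodes a docking protein downstream of the insulin receptor and of the receptor encoded by Igf1r. It had 584 ± 133 CPM in SMC2 and 183 ± 24.6 in SMC1, against 133 ± 6.26 in Intermediate and 148 ± 14.4 in Progenitor. Irs2 was higher in SMC2 than in SMC1 (1.68, adjusted p = 4.07e-07). The adaptor gene Grb14, an inhibitor of insulin receptor signalling, was highest in SMC1 at 66.2 ± 4.45 CPM, and its relative Grb10 was lower in SMC2 (-1.66, adjusted p = 4.16e-07) and SMC1 (-1.45, adjusted p = 2.56e-06) than in Progenitor.

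All 18 genes of the intracellular phosphoinositide 3-kinase (PI3K) and mTOR list were tested. Set beside the shares of all genes in brackets, the counts were 1 higher and 6 lower in SMC2 minus SMC1 (16.5% and 18.1%), 7 and 1 in SMC1 minus Progenitor (25.3% and 23.1%), 5 and 3 in SMC2 minus Progenitor (23.1% and 21.7%), 3 and 3 in SMC1 minus Intermediate (19.7% and 21.9%), 2 and 4 in SMC2 minus Intermediate (21.4% and 23.2%) and 5 and 0 in Intermediate minus Progenitor (12.7% and 9.46%). The list medians ran from -0.27 to 0.43, beside -0.00 to 0.08 for all genes. The catalytic subunit gene Pik3cb had 16.6 CPM in SMC2 and 55.9 in SMC1, against 7.30 in Intermediate and 4.15 in Progenitor (SMC1 minus Progenitor 3.76, adjusted p = 4.21e-11). The regulatory subunit gene Pik3r1 was highest in Intermediate, at 310.1 CPM against 164.5 in Progenitor (0.92, adjusted p = 0.000659). Mtor, the kinase gene that gives the list its name, was lower in SMC2 than in SMC1 by -0.65 (adjusted p = 0.0114).

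All 9 genes of the growth hormone list, the upstream arm of the axis, were tested. Set beside the shares of all genes in brackets, the counts were 4 higher and 3 lower in SMC2 minus SMC1 (16.5% and 18.1%), 2 and 5 in SMC1 minus Progenitor (25.3% and 23.1%), 0 and 4 in SMC2 minus Progenitor (23.1% and 21.7%), 1 and 4 in SMC1 minus Intermediate (19.7% and 21.9%), 1 and 4 in SMC2 minus Intermediate (21.4% and 23.2%) and 2 and 1 in Intermediate minus Progenitor (12.7% and 9.46%). The list medians ran from -0.65 to -0.08, beside -0.00 to 0.08 for all genes. The growth hormone receptor gene Ghr had 83.8 ± 17.5 CPM in SMC2 and 249 ± 35.6 in SMC1, against 239.5 ± 7.19 in Intermediate and 173 ± 24.9 in Progenitor. Like Igf1, it was lower in SMC2 than in Progenitor (-1.04, adjusted p = 6.76e-05) and than in Intermediate (-1.515, adjusted p = 6.57e-07). Unlike Igf1, it was higher in SMC1 than in Progenitor (0.53, adjusted p = 0.0196), and it was not called in SMC1 minus Intermediate (0.06, adjusted p = 0.831). Socs2, a feedback inhibitor of the receptor, was at 29.9 ± 7.49 CPM in SMC2 and 104 ± 14.9 in SMC1 (-1.80, adjusted p = 4.79e-07). The related gene Cish had the opposite order, at 11.3 ± 0.279 CPM in SMC2 and 2.235 ± 0.2699 in SMC1 (2.33, adjusted p = 1.6e-06), and Socs1 was lower in SMC2 than in Progenitor (-1.40, adjusted p = 9.11e-06).

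Of 8 genes at the Igf2 locus, of its imprinted network or for proteins that bind its mRNA, 6 were tested. Set beside the shares of all genes in brackets, the counts were 3 higher and 0 lower in SMC2 minus SMC1 (16.5% and 18.1%), 0 and 6 in SMC1 minus Progenitor (25.3% and 23.1%), 1 and 4 in SMC2 minus Progenitor (23.1% and 21.7%), 0 and 4 in SMC1 minus Intermediate (19.7% and 21.9%), 2 and 4 in SMC2 minus Intermediate (21.4% and 23.2%) and 0 and 3 in Intermediate minus Progenitor (12.7% and 9.46%). The list medians ran from -2.03 to 1.08, beside -0.00 to 0.08 for all genes. These counts and medians include H19, with the limit given for it above. Dlk1, an imprinted gene whose product restrains adipocyte formation, had 28.8 ± 9.14 CPM in SMC2 and 1.38 ± 1.29 in SMC1, against 0.565 ± 0.185 in Intermediate and 4.43 ± 0.487 in Progenitor (SMC2 minus SMC1 4.38, adjusted p = 6.9e-07). Adipocyte markers, too, were highest in SMC2, as given above, and their part in the SMC2 values of Dlk1, Irs2 and Igf2 was not tested. The mRNA-binding protein gene Igf2bp2 was lower in SMC2 (-2.41, adjusted p = 4.49e-07) and SMC1 (-1.90, adjusted p = 7.66e-06) than in Progenitor, as were the imprinted regulators Plagl1 (-0.92, adjusted p = 0.000112, and -2.85, adjusted p = 6.28e-11) and Cdkn1c (-2.26, adjusted p = 4.51e-09, and -2.17, adjusted p = 8.42e-09). Of the exon bases of Cdkn1c, 30.7% overlap another annotated gene.

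**Figure D5:**
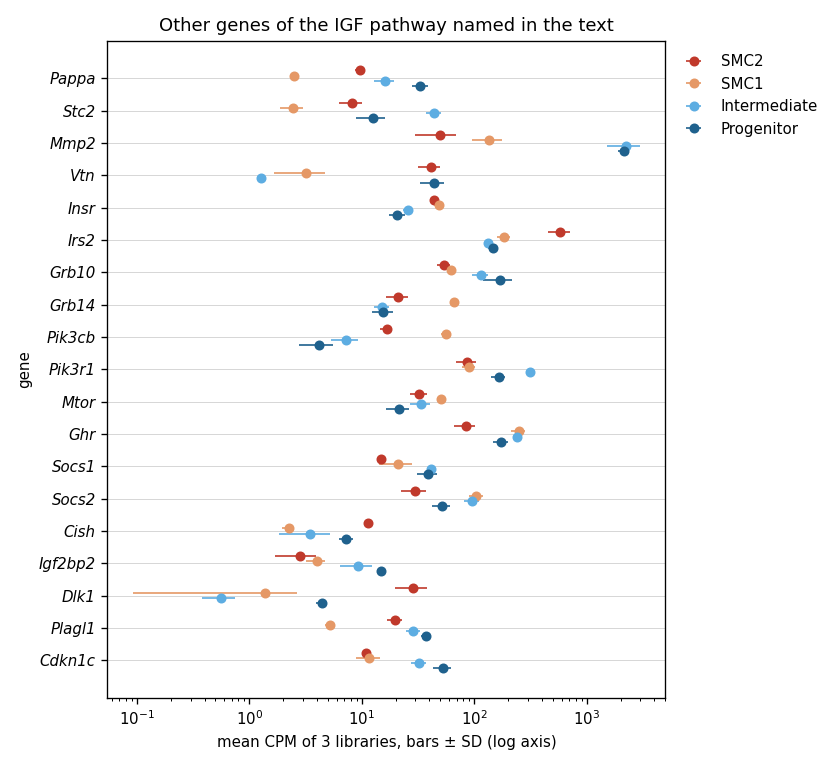
Mean CPM of the other pathway genes named in the text by rule in each population on a log axis, with bars of ± SD over 3 libraries. Irs2 and Dlk1 have their highest means in SMC2, Grb14 and Pik3cb in SMC1, Stc2 and Pik3r1 in Intermediate, and Pappa and Cdkn1c in Progenitor.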

How the data were processed

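Poly(A) RNA was sequenced from 12 libraries, 3 per population. Per the labels' protocols, aortas with perivascular fat were digested and sorted, and libraries were made with a SMART-Seq kit. Such cDNA carries no strand mark, so reads of antisense genes cannot be told from those of the gene opposite. The authors deposited raw read counts per gene and library as whole numbers, and these were used; their normalized and log tables were not. Per the submitters' processing notes, the genome build was mm10 and the tools included DESeq2 1.26.0 and STAR 2.5.2a. The counting program and annotation are not given in the sources used here.

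Genes passing filterByExpr with a minimum count of 10 (19016 of 33352) were fitted with edgeR 4.0.16 (limma 3.58.1, R 4.3.3) as group means over all 12 libraries, with TMM scaling, robust dispersions (common biological coefficient of variation 0.206) and 8 residual degrees of freedom. Two-sided quasi-likelihood F tests were adjusted by Benjamini-Hochberg over all genes of a comparison. CPM uses TMM-scaled library sizes, lengths and coordinates are those of GENCODE M21 on GRCm38, and promoter windows are from RefSeq. No protein sequence was used. DESeq2 1.42.0 served as an alternative. The code was tested on simulated counts.

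The members, lists and tests were chosen with earlier results of these data known. All 10 members are named. From each pathway list the 4 genes with the smallest adjusted p for any difference are named, and for each tested member the 3 nearest genes with a mean of at least 4 log2 CPM (prior count 2) in some population, except for 2 genes that are not reported here. Nothing says that the libraries came from separate animals, so p-values rest on differences among these libraries that could be technical. A chi-square test of counts between libraries of a population gave at least 8.17 per degree of freedom. None was therefore taken as another library sequenced again. Because the test allows for counting error only, it cannot tell separate samples from libraries made again from the same sample. The numbers pair Intermediate with Progenitor libraries by the correlation of their deviations from group means (0.171, 0.191 and 0.17, all above 0.1). In each other comparison at least 1 correlation was below 0.1, with 0.145, 0.0469 and 0.159 for SMC2 and SMC1. Missing this limit does not show that those libraries are unpaired.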

Additional observations from a re-analysis of the deposited data

How the results depend on the processing

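Of 972 member changes under alternative settings, 933 kept their direction and side of the threshold, 11 lost their call, 8 gained one and 20 turned sign. None of the 20 belonged to the 42 called changes of the 54 tested, and the cause was not tested. The sign turned for Igf1 in Intermediate minus Progenitor at -0.10 with upper-quartile scaling, -0.038 with only the 2 populations compared and between -0.038 and 0.20 when each library was left out. Igf1 in SMC2 minus SMC1 was 0.087, 0.035 and between -0.27 and 0.24 under the same settings. Igfbp7 in SMC2 minus Intermediate was -0.0055 with no filter on low counts and between -0.15 and 0.27 with a library left out. With a library left out, Igfbp4 in Intermediate minus Progenitor ran from -0.35 to 0.11 and Igfbp5 in SMC2 minus Progenitor from -0.38 to 0.19. The count of members called in Intermediate minus Progenitor ran from 3 to 5 with a library left out, and over all genes it was 4218, against 2771 without Intermediate replicate 2. A fit that leaves out a library assumes that the remaining 2 vary like the other populations. With the replicate number as a block, the members called were 3 in Intermediate minus Progenitor, 7 in SMC2 minus SMC1 and 9 in SMC1 minus Progenitor. They were 8 in SMC2 minus Progenitor, 9 in SMC1 minus Intermediate and 6 in SMC2 minus Intermediate. These counts were the same as without the block, and no member call changed. Over all genes, more were called with the block in Intermediate minus Progenitor, SMC2 minus SMC1 and SMC1 minus Progenitor. The unchanged member counts thus do not hold for all genes. Each library correlated best with its own number in 6 of 6 cases for SMC2 and SMC1, as for Intermediate and Progenitor. It did so in 2 to 4 of 6 for the other comparisons. Of 48 binding protein shares with other lengths or none, 30 moved by more than the SD between libraries. Igf2 is limited by its low counts, with 3 to 29 summed over a population, and by the exon overlap given above.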
